A study of Homo sapiens with 4 samples.

Results

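In PC3 cells given the LSD1 inhibitor GSK2879552, 1564 FOXA2 peaks were called at positions where no peak was called in vehicle-treated cells. They were chosen by the called intervals themselves, as the peaks of the GSK2879552 list on chromosomes 1 to 22 and X whose interval overlapped no interval of the vehicle list by 1 bp or more. They made up 10.7% of the 14642 GSK2879552 peaks on these chromosomes (1564 of 14642), and are called GSK2879552-only peaks here. A further 38 such peaks on sequences other than these chromosomes were left out by the rule. The members were split by the distance from their summit, the base with the highest signal, to the nearest vehicle summit. By this measure 498 lay under 12.5 kb from a vehicle summit, 761 lay 12.5 to 100 kb away, and 305 lay over 100 kb away.

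The data come from chromatin immunoprecipitation with sequencing (ChIP-seq) for FOXA2 in PC3, an established human prostate cancer cell line. One group received 50 µM GSK2879552 for 4 hours and the other received vehicle, for which no separate duration is stated; per the labels' protocols the cells were in medium with 5% charcoal-stripped serum. Each group comprised 2 sequencing lanes, described as technical replicates, and 1 peak list covering both lanes. FOXA2 ChIP-seq is the assay named by the titles and the series and was followed here, although ATAC-seq appears in the sample descriptions. Spread between cultures cannot be measured from 1 list per group. The groups were therefore not tested against each other, and every difference below is between these 2 libraries.

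FOXA2 is a forkhead transcription factor, a pioneer factor that can bind its recognition sequence in compact chromatin and helps other factors gain access to enhancers. It is best known from endoderm-derived organs such as liver and lung, and in the prostate it has been described in neuroendocrine and other androgen-independent cancers. LSD1 (KDM1A) is a flavin-dependent demethylase that removes methyl groups from lysines of histone H3 and of some non-histone proteins, and works within repressor complexes as well as with activating factors. GSK2879552 binds covalently to the flavin cofactor of LSD1. The comparison asks whether the set of FOXA2-bound sites differs when LSD1 is inhibited.

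The background floors of both lists were close, while total depth is not given by the lists. The floor of the local background, the genome-wide mean of fragments per position used by the peak caller, was 1.079 fragments in vehicle and 1.082 in GSK2879552. The fragment length taken from the narrowest intervals was 175 bp in vehicle and 168 bp in GSK2879552. The background then corresponded to 6.17 and 6.44 reads per kb, if it was made without a control library, which is not given in the sources used here. Fragment numbers are the whole numbers of sequenced fragments covering a summit, recovered from the authors' fold enrichment and −log10 p. They describe the library in which a peak was called. The deposited lists give no value for the vehicle library at a position where it had no peak, so no vehicle value and no fold between the groups can be given for any member. A member is a site not called in vehicle, not one shown to be unbound there.

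The overlap rule itself set which peaks are members, so the values of this paragraph describe the selection and support nothing. In the opposite direction, 8013 of 21065 vehicle peaks on the same chromosomes (38.0%) overlapped no GSK2879552 peak. GSK2879552-only peaks were thus the smaller of both unmatched sets. Few peaks lay close to the limit of the rule. In 15 members the gap to a vehicle interval was under 100 bp, and in 66 it was under 500 bp. On the other side of the limit, 3 GSK2879552 peaks were counted as shared through 1 to 20 bp and 11 through 1 to 50 bp. The member at chr8:69060720-69060935, with 14 fragments, directly adjoined a vehicle interval with no base between, and its summit lay 262 bp from the vehicle summit. The members at chr11:94571328-94571508 and chr11:101982645-101982813, with 11 and 9 fragments, lay 7 bp and 8 bp from a vehicle interval. These 3 were chosen after their values were seen, as the members with the smallest gap.

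Members were closer to the other list than vehicle-only peaks were. The distance to the nearest vehicle summit had a median of 29950 bp over the members (interquartile range 8046 to 79560). For vehicle-only peaks the distance to the nearest GSK2879552 summit had a median of 41132 bp (12731 to 105384). Under 12.5 kb lay 31.8% of members (exact 95% binomial interval 29.5 to 34.2) and 24.6% of vehicle-only peaks (23.7 to 25.6). Over 100 kb lay 19.5% (17.6 to 21.6) and 26.1% (25.1 to 27.0). The middle class held nearly equal shares, 48.7% (46.2 to 51.2) and 49.3% (48.2 to 50.4). All intervals cover counting error only. The vehicle list is the longer one, and a longer list leaves shorter distances to its nearest summit, so these shares do not compare how the sites are placed. At the 12.5 kb limit, the last member inside, chr21:10807003-10807193 with 17 fragments, was 12479 bp and the first outside, chr20:10541492-10541680 with 18, was 12505 bp from a vehicle summit. At the 100 kb limit these were chr10:78628370-78628544 with 22 fragments at 99959 bp and chr11:82993902-82994093 with 14 at 100787 bp.

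**Figure D1:**
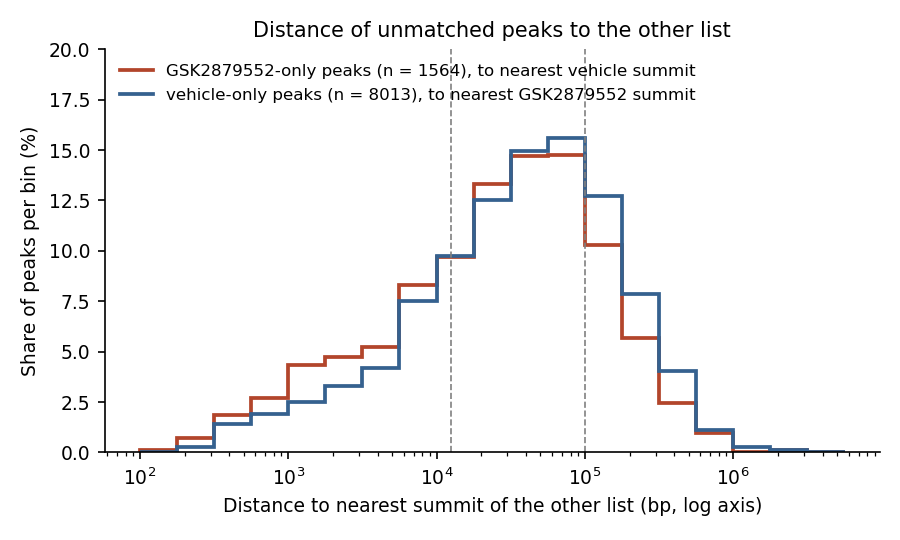
Distance from each unmatched peak to the nearest summit of the other list (x axis, bp, log scale) against the share of peaks in each bin (y axis, percent), for 1564 GSK2879552-only peaks and 8013 vehicle-only peaks; dashed lines mark 12.5 and 100 kb. Both curves have a single broad maximum, and the GSK2879552-only curve holds more of its peaks under 12.5 kb (31.8% against 24.6%).

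The very close members split between places where the neighbouring vehicle peak was retained and places where it was not. Of 39 members under 500 bp from a vehicle summit, 21 had a nearest vehicle peak that itself overlapped no GSK2879552 peak, so that each list held its own peak there; at the remainder the neighbour was also called after GSK2879552. Of 84 members under 1000 bp, 41 had such an unmatched vehicle neighbour (48.8%, 37.7 to 60.0). Over all members the share was 40.7% (38.3 to 43.2), against 38.0% unmatched in the vehicle list as a whole. By class it was 41.8% (37.4 to 46.2) under 12.5 kb, 39.0% (35.5 to 42.6) at 12.5 to 100 kb and 43.3% (37.6 to 49.0) over 100 kb. These intervals overlap. The nearest vehicle peak had a median of 19 fragments in the closest class, 17 in the middle class and 16 in the farthest, against 18 over all vehicle peaks.

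GSK2879552-only peaks had fewer fragments than shared peaks in all 3 classes. Vehicle-only peaks, in their own library, had a median of 14 (12 to 17). The members' summits were covered by 8 to 185 fragments, with a median of 12 (interquartile range 11 to 15), against 19 (14 to 26) for the 13078 shared GSK2879552 peaks. The median was 13 (11 to 16) under 12.5 kb, 12 (11 to 14) at 12.5 to 100 kb and 12 (11 to 13) over 100 kb. A −log10 q of at least 5 was reached by 981 members (62.7%, 60.3 to 65.1), where 86.0% of all GSK2879552 peaks reached it. A −log10 q of at least 10 was reached by 61 members (3.90%, 3.0 to 4.98), against 43.9% of all GSK2879552 peaks. These 61 were spread over the classes in about the same proportion as the members themselves, with 20, 30 and 11 from the closest to the farthest class. In the vehicle list 51.2% of peaks reached a −log10 q of at least 10, and 1351 of these had no GSK2879552 counterpart. At this strength the unmatched share was therefore 0.948% (0.726 to 1.22) of GSK2879552 peaks and 12.5% (11.9 to 13.2) of vehicle peaks.

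The share of peaks without a counterpart was also taken at equal fragment numbers, as a description of both lists. The vehicle list is longer by 21065 to 14642 peaks, so more of its peaks must lack a counterpart. Lacking one is also what the rule used, and the difference between the lists was not tested. With 10 fragments at the summit, 182 of 546 GSK2879552 peaks (33.3%, 29.4 to 37.5) were members, whereas 534 of 667 vehicle peaks (80.1%, 76.8 to 83.0) were unmatched. With 13 to 14 fragments the shares were 17.6% (16.0 to 19.4) and 64.6% (62.8 to 66.4). With 21 to 25 they were 1.87% (1.32 to 2.57) and 21.8% (20.2 to 23.3). In both lists the share was lower at each step up to 26 to 30 fragments, where it was 0.619% (0.249 to 1.27) for GSK2879552 and 9.86% (8.52 to 11.3) for vehicle. Above 30 fragments, 20 of 2425 GSK2879552 peaks (0.825%, 0.504 to 1.27) were members. All 20 had a local background of 5 fragments or more. Of the 1949 GSK2879552 peaks above 30 fragments with a lower local background, none was a member, which allows a share of up to 0.189%.

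**Figure D2:**
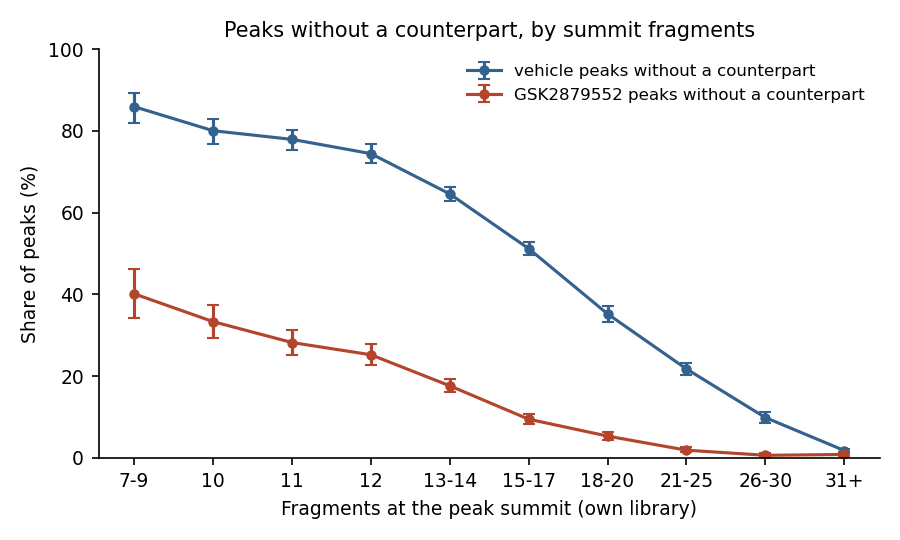
Share of peaks without a counterpart in the other list (y axis, percent) by the number of fragments at the summit in the peak's own library (x axis), with exact 95% binomial intervals as error bars (counting error only). At each step up to 30 fragments the GSK2879552 list lies below the vehicle list, for example 33.3% against 80.1% at 10 fragments.

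The fragment number that would have met the vehicle list's own limit gives a scale for the members. The lowest −log10 p in the authors' deposited vehicle list was 4.01. With the member's local background scaled by the ratio of the floors, the smallest whole number of fragments reaching that value was 7 to 152, with a median of 7. Members carried 1.11 to 3.38 times this number in the GSK2879552 library (median 1.57), against a median of 2.13 times for shared peaks. The lowest −log10 p in the GSK2879552 list, 4.49, is above the vehicle one. By these limits no GSK2879552 peak can have a ratio below 1, so the ratio is read only for its size. The ratio was at least 2 in 196 members (12.5%, 10.9 to 14.3), where 55.6% of all GSK2879552 peaks had it. For 322 members (20.6%, 18.6 to 22.7) the lower bound of the exact 95% Poisson interval of the fragment number lay at or above the needed number, against 64.9% of all GSK2879552 peaks. For vehicle-only peaks, set against the GSK2879552 list in the same way, the median ratio was 1.63, 22.8% had a ratio of at least 2 and 34.0% had a lower bound at or above the needed number. At the background floor, where 7 fragments reach the lowest −log10 p of the vehicle list, 15 of 2181 called vehicle peaks (the 10.4% of that list at the floor) had 8 or fewer fragments. How many positions with 7 or 8 fragments were not called is not shown by these lists.

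**Figure D3:**
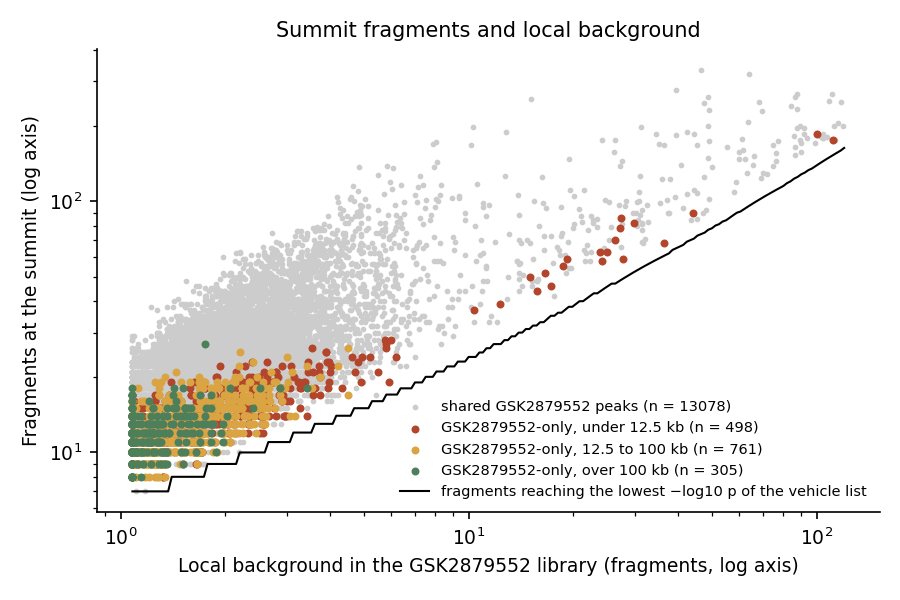
Fragments at the summit (y axis, log scale) against the local background in the GSK2879552 library (x axis, fragments, log scale) for shared peaks in grey and GSK2879552-only peaks coloured by distance to the nearest vehicle summit; the black line is the fragment number that reaches the lowest −log10 p of the vehicle list. GSK2879552-only peaks lie toward the lower edge of the cloud, with fragment numbers 1.11 to 3.38 times the line, and those with a background of 5 or more all belong to the class under 12.5 kb.

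Members were also narrow. Their median width was 185 bp (interquartile range 168 to 214), against 251 bp (204 to 302) for shared GSK2879552 peaks. Vehicle-only peaks had a median of 211 bp (183 to 248), with 17.03% at that list's own minimum of 175 bp. At the minimum width of 168 bp were 434 members (27.7%, 25.5 to 30.04), where 9.15% of all GSK2879552 peaks had that width. Weak peaks are narrower in general, and a narrow interval has less length with which to overlap another, so the width was compared at equal fragments outside positions with a local background of 25 or more. With 11 to 12 fragments, 518 members had a median width of 180 bp (168 to 204) and 1433 shared peaks one of 189 bp (168 to 223). With 18 to 20 fragments, 100 members had 207 bp (180 to 228) and 1779 shared peaks 247 bp (218 to 284). The local background differed too in this stronger group, with a median of 2.34 fragments at members and 1.75 at shared peaks. The 3 classes had nearly the same width, with medians of 185, 187 and 185 bp from the closest to the farthest.

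What separated the classes was the local background, the read density of the surrounding window. Its median was 1.68 fragments (1.31 to 2.35) under 12.5 kb, 1.31 (1.11 to 1.68) at 12.5 to 100 kb and 1.13 (1.08 to 1.33) over 100 kb. At the floor lay 7.23% (5.11 to 9.87), 21.6% (18.7 to 24.6) and 43.0% (37.3 to 48.7) of the members of these classes, where 9.53% of all GSK2879552 peaks were at the floor. The fold enrichment ran the other way, since it divides by this background: the authors' values had medians of 5.23, 5.47 and 5.76. If no control library was used, the reads of a neighbouring peak enter the window from which the background is taken. Their part in this order was not tested.

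Among members under 12.5 kb from a vehicle summit, the 8 with the highest −log10 p outside high-background positions had 19 to 26 fragments. The strongest, at chr6:73740145-73740352, had 22 fragments (exact 95% Poisson interval 13.8 to 33.3) over a local background of 1.93, and lay 2667 bp from a vehicle summit of 41 fragments. Another, at chr7:125085019-125085236, had 19 fragments and lay 5847 bp from a vehicle summit of 23. Next came chr1:218671376-218671664 with 23 fragments, 1411 bp from a summit of 42. At all of these the neighbouring vehicle peak was retained after GSK2879552, as it was at 7 of the 8. The exception was chr3:188249062-188249260 with 23 fragments, whose neighbour 2830 bp away, of 28 vehicle fragments, was not called after GSK2879552. The remaining 4 were chrX:61846300-61846571, chr5:91897875-91898080, chr13:73631658-73632032 and chr8:105764588-105764807, with 22, 19, 20 and 26 fragments. The member at chr13:73631658-73632032 was 375 bp wide, the widest of the 8, and outnumbered in fragments its vehicle neighbour, which lay 1054 bp away and had 14. The member at chr8:105764588-105764807 likewise had more fragments than its neighbour of 19 at 2120 bp.

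Members at 12.5 to 100 kb included sites with a higher −log10 p than those of the closest class outside high-background positions. The 8 strongest had 18 to 25 fragments over local backgrounds of 1.13 to 2.40, and the number needed in vehicle was 7 to 10. The first, at chr1:224240067-224240294, had 25 fragments (16.2 to 36.9), 13129 bp from the nearest vehicle summit. Another member lay 5895 bp from it, and the stretch between both flanking vehicle summits held 3 members in all. Chromosome 19 held the next pair, chr19:27906136-27906429 with 21 fragments (13 to 32.1) and chr19:23548142-23548335 with 20 (12.2 to 30.9). Their nearest vehicle summits were 84574 bp and 26016 bp away. At chr5:133728109-133728327 and chr13:27757260-27757474 there were 19 fragments each, and the neighbouring vehicle peaks, of 16 and 12 fragments, were not called after GSK2879552. The site at chr4:86617440-86617677 had 18 fragments at a local background of 1.13, close to the floor. The last of the 8, chr2:226759385-226759605 and chr14:27792133-27792368, had 20 and 23 fragments. At chr2:226759385-226759605 the nearest vehicle peak, 32884 bp away, had 9 fragments and was also unmatched, as was the neighbour of chr14:27792133-27792368, 15151 bp away with 16 fragments.

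The member with the highest −log10 p of all 1564 lay in the farthest class. At chr7:42685614-42685871, 27 fragments (17.8 to 39.3) covered the summit over a local background of 1.75, at an authors' fold of 10.2 and a −log10 q of 19.4. In vehicle 8 fragments would have reached the lowest −log10 p of the list there, and the nearest vehicle summit was 166166 bp away. A second member, chr7:42689044-42689211 with 13 fragments, lay 3372 bp from it. The remaining 7 of the 8 strongest had 16 to 18 fragments, and 6 of those 7 had a local background at the floor. They were chr8:39344252-39344503 with 18 fragments (10.7 to 28.4), chr4:15304739-15305006, chr4:139483886-139484142, chr4:188829371-188829605 and chr5:53408394-53408606 with 17 each (9.90 to 27.2), chr5:32193783-32194005 with 18, and chr5:117701063-117701301 with 16 (9.15 to 26). Of the 8, 3 lay on chromosome 4 and 3 on chromosome 5. These chromosomes held 27 and 25 of the 305 members of this class, and no concentration was tested. In each of the 24 peaks named as strongest in the 3 classes, the lower Poisson bound was at or above the number needed in vehicle. They were picked as the highest of their class, which by itself favours high fragment numbers.

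Members in the farthest class were mostly single. Of 305, 7 had another GSK2879552 summit within 12.5 kb (2.30%, 0.928 to 4.67), and in all 7 the nearest such summit was another member. The class limit fixes this, because every shared GSK2879552 summit lay within 827 bp of a vehicle summit. Besides the pair on chromosome 7, they comprised 2 summits 265 bp apart at chr1:368271-368445 and chr1:368518-368685, with 11 and 9 fragments. The other 3 were neighbours on chromosome 5, at chr5:1333147-1333320, chr5:1333548-1333778 and chr5:1333831-1334000, with 15, 14 and 15 fragments. These 3 peaks stood within 854 bp, and the vehicle summits on either side were 380942 bp apart. All had a local background of 1.53 fragments. In the middle class 13 of 761 had another GSK2879552 summit within 12.5 kb, and in the closest class 343 of 498. This order largely restates the distance split, so nothing is read from it. The farthest members of all were on chromosome X, chrX:2022542-2022709 and chrX:2625470-2625637, with 9 and 12 fragments and nearest vehicle summits 2564423 bp and 1961538 bp away. Both were of the minimum width. The peaks named in this paragraph were chosen after their values were seen.

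The 1564 members fell into 1435 stretches between neighbouring vehicle summits. Of these stretches, 1315 held 1 member, 111 held 2 and 9 held 3, and none held more. No reference for such counts was computed over the other peaks, so they describe the members only. The 9 stretches with 3 members were 39301 to 1075286 bp long. The shortest lay on chromosome 10 between vehicle summits at 38778113 and 38817414, with members of 12 to 16 fragments. On chromosome 11, a stretch of 514002 bp held 3 members of 12 to 19 fragments within 55993 bp. Over all members, 59 (3.77%, 2.88 to 4.84) had another member within 12.5 kb.

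A small set of members lay in dense read pile-ups. A local background of 25 fragments or more was found at 10 members (0.639%, 0.307 to 1.17), against 0.867% of all GSK2879552 peaks. A background of 5 or more was found at 28 (1.79%, 1.19 to 2.58), against 3.70%. All 28 were under 12.5 kb from a vehicle summit and had another GSK2879552 summit within 12.5 kb, and at 25 of them the nearest vehicle peak was retained. They held all 20 members above 30 fragments, a number that 16.6% of all GSK2879552 peaks exceeded. Their fold was low, with a median of 2.87, against 5.46 over all members. The 5 strongest at 25 or more were chr19:27740091-27740259 with 86 fragments over a background of 27.5, chrX:61720804-61721021 with 78 over 27.2, chr2:92301058-92301230 with 82 over 29.9, chr10:42392221-42392388 with 185 over 100.2, and chr11:51590354-51590537 with 70 over 26.4. The vehicle neighbour, 652 to 3059 bp away, was itself dense at each of them, with 98 to 208 fragments. The nearest other member to chr19:27740091-27740259 was chr19:27906136-27906429, 166056 bp away. That to chrX:61720804-61721021 was chrX:61846300-61846571, 125493 bp away. Both of these nearest members are named above among the strongest of their class. At the 28 members no ratio to the needed number reached 2, while 18 (64.3%, 44.1 to 81.4) had a lower Poisson bound at or above it, against 20.6% of all members. Without the 28, the closest class had a median of 13 fragments (11 to 16), unchanged, and its highest value was 26 in place of 185.

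The share of members among GSK2879552 peaks differed between chromosomes at the extremes. It was highest on chromosome 22, with 17 of 83 peaks (20.5%, 12.4 to 30.8), and lowest on chromosome 20, with 21 of 340 (6.18%, 3.86 to 9.29). These intervals exclude the 10.7% of all chromosomes. Of the other chromosomes, only the interval of chromosome 8 did so, by a small margin, with 85 of 979 (8.68%, 6.99 to 10.6). The intervals were not adjusted for the number of chromosomes looked at. Weak peaks are more often members, so the numbers were also set against those that each chromosome's mix of fragment numbers would give at the shares of all chromosomes together. On that scale chromosome 22 had 17 against 13.4, a ratio of 1.26, and chromosome 20 had 21 against 25.9, a ratio of 0.809. No intervals were computed for the ratios, and none was tested. The highest ratios were on chromosomes 8, 14 and 10, at 1.51, 1.39 and 1.32, although their plain shares were among the lowest. That scale matches fragment numbers only, not local background. The median background at shared peaks was highest on these same chromosomes, at 2.82, 2.87 and 3.36, and its part in the ratios was not tested. Chromosomes 9 and 4 had the lowest ratios, 0.787 and 0.793.

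Members on chromosomes 8 and 14 were covered by more fragments than members elsewhere. The median was 16 fragments on chromosome 8 and 14.5 on chromosome 14, followed by 14 on chromosome 10, whereas it was 11 to 13 on every other chromosome. This was not particular to members. Over all GSK2879552 peaks the median was 22, 22 and 23 on these chromosomes, and 14 to 20 on every other. The local background moved in step. Its median over members was 2.40 on chromosome 8 and 2.12 on chromosome 14, and at shared peaks it was 2.82 and 2.87. On chromosome 10 it was 1.53 at members and 3.36 at shared peaks. The authors' fold of members was lowest on chromosome 8, with a median of 5.00, followed by 5.14 on chromosome 14. The part of the local read density in these fragment numbers was not tested.

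**Figure D4:**
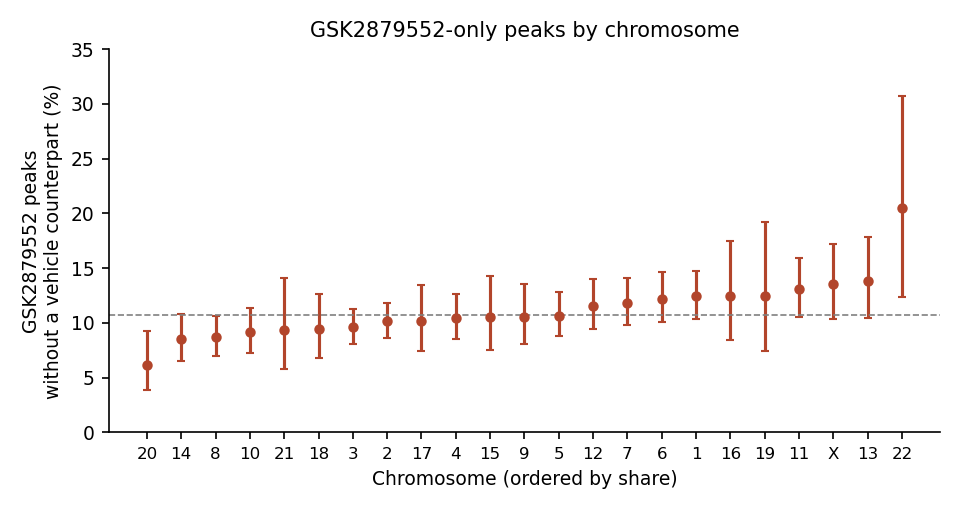
Share of GSK2879552 peaks that overlap no vehicle peak (y axis, percent) on each chromosome, ordered by share, with exact 95% binomial intervals (counting error only); the dashed line is the share over all 23 chromosomes, 10.7%. Chromosome 22 at 20.5% and chromosome 20 at 6.18% are the ends of the order, and most intervals cross the line.

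The shares of the distance classes varied between chromosomes, some of which held few members. No intervals were computed for these shares. Over all members 19.5% lay over 100 kb from a vehicle summit and 31.8% under 12.5 kb. Over 100 kb from a vehicle summit lay 20 of 56 members on chromosome X (35.7%), 6 of 17 on chromosome 19 (35.3%), 9 of 28 on chromosome 16 (32.1%) and 27 of 92 on chromosome 4 (29.3%). On chromosome 20 it was 1 of 21 (4.76%), and on chromosome 14 it was 5 of 58 (8.62%). Vehicle peaks numbered 610 on chromosome X, 196 on chromosome 19, 292 on chromosome 16 and 1286 on chromosome 4. On chromosomes 20 and 14 they numbered 485 and 960. These counts were not set against chromosome length, so they do not give the spacing of vehicle peaks. The part of that spacing in the shares of the classes was not tested. Under 12.5 kb lay 6 of 40 members on chromosome 18 (15%) and 8 of 49 on chromosome 13 (16.3%), the lowest shares among the 23 chromosomes.

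Shared peaks carried fewer fragments at the median after GSK2879552, both near a member and elsewhere. Over 413 pairs of shared peaks under 12.5 kb from a member, outside vehicle backgrounds of 25 or more, vehicle summits had a median of 28 fragments and GSK2879552 summits one of 22. The log2 ratio, scaled by the background floors, had a median of -0.27 (interquartile range -0.50 to -0.05). It was -0.31 (-0.54 to -0.08) over 1600 pairs at 12.5 to 100 kb and -0.34 (-0.59 to -0.09) over 10904 pairs farther away. Vehicle summits of those farther pairs had a median of 23 fragments, so the groups of pairs were not matched on fragments. The fragment number was lower after GSK2879552 at 318 of the 413 (77.0%) and higher at 76 (18.4%), against 78.4% and 15.8% of the pairs over 100 kb away. The 95% intervals of the median were -0.31 to -0.21 under 12.5 kb and -0.34 to -0.32 over 100 kb. The interquartile ranges overlapped over most of their length. Where the pair had a member but no vehicle-only summit within 12.5 kb, the median was -0.30 over 319 pairs. Its 95% interval, -0.37 to -0.24, covered that of the pairs over 100 kb away. With a vehicle-only summit but no member the median was -0.32 over 1900 pairs (-0.35 to -0.31). All intervals of these medians treat pairs of the same 2 libraries as independent, so no difference between the groups of pairs is read from them. These ratios come from the same contrast as the choice of members and were not tested.

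**Figure D5:**
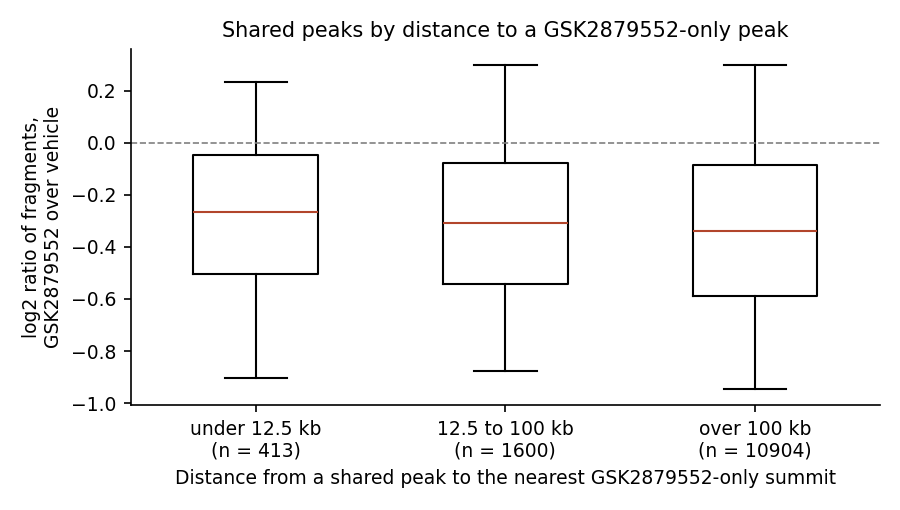
Log2 ratio of summit fragments, GSK2879552 over vehicle, at pairs of shared peaks (y axis) by distance to the nearest GSK2879552-only summit (x axis); boxes are interquartile ranges with the median in red, whiskers run from the 5th to the 95th percentile. The 3 medians are -0.27, -0.31 and -0.34 from the closest to the farthest group, all below 0, and the boxes overlap.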

How the data were processed

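FOXA2 ChIP-seq peak lists of PC3 cells, 1 per group and each covering 2 lanes, were analysed. The submitters' processing notes name hg19 (GRCh37), MACS2 2.1.2, BWA 0.7.2 and SAMtools 0.1.18. Not given in the sources used here are the options, the threshold, the handling of duplicates and any control library. The deposited fold is the ratio of fragments plus a pseudocount of 1 to local background plus 1. For p-values and q-values the authors' peak caller wrote −log10 values. A whole-number score, 10 times the −log10 q, is also deposited. The whole fragment number under 1500 giving the deposited p was recovered within 0.001 for 100% of peaks in both lists; 3 vehicle and 7 GSK2879552 peaks had a second match. On simulated summits 100% of 1847 (vehicle) and 100% of 1820 (GSK2879552) were recovered. Overlaps were checked with bedtools 2.31.1. Coordinates are 1-based hg19. Gene content and sequence at the members were not analysed here.

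Members and limits were chosen with earlier results of these data known. The named peaks are the 8 of highest −log10 p per distance class with a local background under 25, the 5 highest at 25 or more, and those next to the distance limits; others are stated where they occur. Alternatives comprised other overlap rules, thresholds, distance measures and limits, and backgrounds.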

Additional observations from a re-analysis of the deposited data

How the results depend on the processing

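The number of members, 1564, was 1530 with vehicle intervals widened by 250 bp, 1667 and 2028 with 50% of the GSK2879552 peak or of both peaks covered, 2126 with summits within 100 bp, 1246 with both lists limited to a −log10 q of 5 or more, and 1086 with the fold at 5 or more. With the vehicle list as deposited, a limit on the −log10 q of the GSK2879552 list alone left 981 at 5 and 61 at 10, fewer by construction. Holding both lists to 5 gave 29.0% under 12.5 kb and 22.1% over 100 kb. Limits of 10000 and 50000 bp gave 28.0%, 34.5% and 37.5% from the closest to the farthest class; 25000 and 200000 bp gave 45.9%, 46.4% and 7.74%, by construction. Fragments above the local background had a median of 10.9. Leaving out backgrounds of 25 or more, or of 5 or more (the latter chosen after seeing the data), left 1554 and 1536 members and moved no class share or median beyond its interval. Leaving out a lane was not run, as lanes were merged within each list, and neither were the settings for the forkhead core. No paired analysis was possible because lanes of a group share 1 list. Spread between cultures is not measured, and at a median of 12 fragments per summit a weak site missed in vehicle cannot be told from one absent there.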
